A study of Bos grunniens with 18 samples.

Results

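Gene expression of the yak ovary in estrus was compared with that in anestrus, over all genes with values in the expression table analysed here. The comparison used 6 of the 18 samples of the series, the 3 anestrus (YO-A) and the 3 estrus (YO-F) input libraries, which are RNA-seq libraries of polyadenylated RNA. The 3 pregnancy (YO-P) input libraries shared the fit, and the 9 immunoprecipitation libraries for N6-methyladenosine (m6A) were not part of the comparison. Yaks (Bos grunniens) of all groups were healthy, slaughtered adults of the same age from 1 farm, with no treatment. Ovaries were taken in April in anestrus, in August in estrus and in December in pregnancy, so reproductive stage and month of collection cannot be told apart. Each library came from a piece of whole ovary, so fewer cells of a type and less RNA per cell cannot be told apart either.

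The table analysed here holds 173 genes, of which the 130 genes whose FPKM averaged 0.1 or more across the 9 input libraries were tested. FPKM scales the fragments assigned to a gene by transcript length and library size. The number of fragments behind a value is therefore unknown, and no counting error is given. Fold changes are on the log2(FPKM + 0.1) scale, which understates the change of genes with low FPKM. At the threshold, ZBED2 had the lowest mean among the genes tested (0.103) and CAMK2N2 the highest mean among those left out (0.0718). CAMK2N2 had an FPKM of 0.437 and 0.209 in anestrus replicates 1 and 2 and was listed at 0 in the other 7 libraries. Most of the genes lie on chromosome 1 (135 genes) and the rest on chromosomes 2 to 4, so that the counts apply to this small set and not to all transcripts of the ovary. Of the 51 marker genes of granulosa cells, theca and luteal cells and oocytes, 0 are among the 173 genes, so the ovarian label could not be checked against its defining markers.

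Yaks breed by season, and their ovaries pass from a period without estrous cycles into cycles with growing follicles, ovulation and a corpus luteum. Growing follicles and the corpus luteum produce steroid hormones, and the first step of steroid synthesis takes place in mitochondria. Ovulation requires local breakdown of the matrix of the follicle wall by secreted proteases and brings white blood cells into the tissue.

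The genes most steadily higher in estrus were PINK1, MRPS6, SOD1 and CRYZL1, by 1.32 to 1.61 times in mean FPKM without estrus replicate 2. Without that library, the largest difference was in ENSBGRG00000000153, which had an FPKM of 1.58 to 2.93 in anestrus and of 0.0445, 0.580 and 0.103 in estrus. IFNAR1 and PCOLCE2 were at 0.537 and 0.546 times their anestrus means in estrus replicates 1 and 3. Of the 130 genes, 96 had a log2 fold change of under 0.5 in either direction.

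Estrus replicate 2 stood apart, and the study left it out of its comparisons, so fold changes are given without it (2 estrus libraries) and with it (3 estrus libraries). Over the 105 tested genes whose mean FPKM was 1 or more, estrus replicates 1 and 3 differed by a median of 0.28 on the log2 scale, whereas replicate 2 differed from them by 0.56 and 0.62. The anestrus libraries differed from each other by 0.24 to 0.38. In replicate 2, 11 of these genes lay more than 1 log2 unit above the median of the other estrus libraries and 26 lay more than 1 below it.

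Without estrus replicate 2, the limma fit gave an unadjusted p under 0.05 for 7 genes higher in estrus (5.38% of those tested) and 5 lower genes (3.85%). With median-ratio scaling of the libraries, the split was 4 higher and 5 lower, and with quantile normalization it was 7 and 5. Fitting only the estrus and anestrus libraries gave 5 higher and 2 lower genes. Moderation without a trend gave 6 and 3, and the replicate number as a block gave 4 and 3. By the standard of the study, a log2 fold change of 1 or more in size with an unadjusted p under 0.05, EPHA3 was higher (0.769%) and ENSBGRG00000000153 was lower (0.769%). With estrus replicate 2, the same standard gave 0 higher genes, where 5 had an unadjusted p under 0.05 (3.85%), and it gave 5 lower genes (3.85%), namely ENSBGRG00000000121, IFNAR1, ENSBGRG00000000153, ENSBGRG00000000188 and ENSBGRG00000000233. After Benjamini-Hochberg adjustment over the 130 genes, 0 genes had an adjusted p under 0.05 in limma, either without replicate 2 (12 genes at an unadjusted p under 0.05, 9.23%) or with it (11 genes, 8.46%). The smallest adjusted p was 0.0509 without replicate 2 and 0.184 with it. The genes named next with an unadjusted p under 0.05 are therefore differences that did not pass the correction. An exact permutation test of a single gene cannot go below a two-sided p of 0.1, with 2 or with 3 estrus libraries against 3, and it reached 0.1 for PINK1, MRPS6, SOD1, CRYZL1, CHMP2B, OMA1, U2SURP, ENSBGRG00000000153 and ENSBGRG00000000188 both ways.

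**Figure D1:**
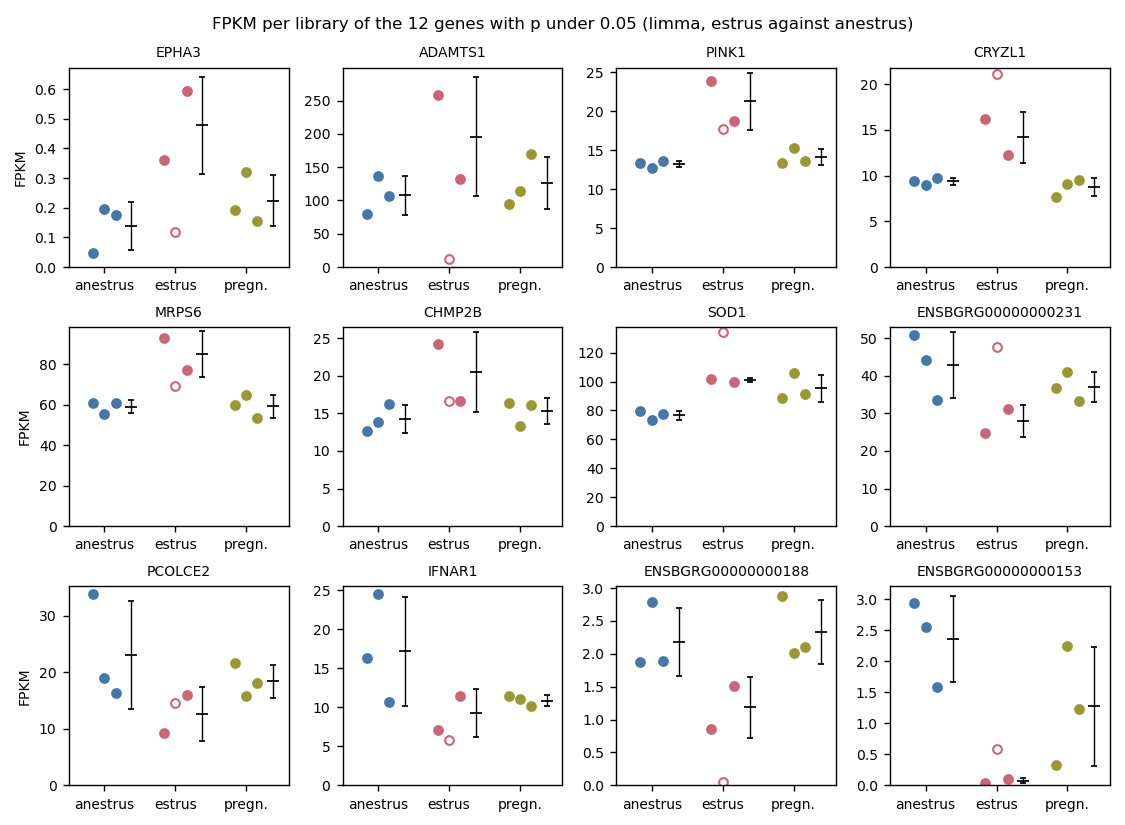
FPKM (vertical axis, linear, from 0) in each of the 9 input libraries for the 12 genes with an unadjusted p under 0.05 in limma without estrus replicate 2. Filled points are libraries in the order of replicate 1 to 3, the open point is estrus replicate 2, and the bars give the mean ± SD of each stage without that library. PINK1, CRYZL1, MRPS6, SOD1 and CHMP2B lay above anestrus in every estrus library, and ADAMTS1 was at 11.6 in estrus replicate 2.

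PINK1, MRPS6 and SOD1, which had the smallest p among the genes higher in estrus without replicate 2, act in mitochondria or in the defence against oxidants. PINK1 (ENSBGRG00000000185, chromosome 2, 4785163 to 4907008) encodes a kinase that accumulates on damaged mitochondria and marks them for removal. Its FPKM was 13.3, 12.7 and 13.5 in anestrus and 23.9, 17.8 and 18.7 in estrus replicates 1, 2 and 3. Every estrus library lay above every anestrus library. The mean was 13.2 ± 0.416 (SD, n = 3) in anestrus and 20.1 ± 3.29 (SD, n = 3) in estrus. The log2 fold change was 0.67 (SE 0.15, adjusted p = 0.127 from limma) without estrus replicate 2 and 0.59 (SE 0.15, adjusted p = 0.184) with it. The span of PINK1 overlaps KIF17, DDOST and SH2D5 on the opposite strand. The methods of the study describe dUTP labelling of the second cDNA strand. Whether counting used the strand is not given in the sources used here. KIF17, which shares 67487 bases with PINK1, had 0.691 and 1.31 in estrus replicates 1 and 3 and 26.8 in replicate 2. In replicate 2, PINK1 had its lowest estrus value. DDOST, which shares 16596 bases with PINK1, had 86.3, 63.7 and 53.3 in anestrus and 63.6, 79.8 and 76.5 in estrus. SH2D5 had 0.664, 0.271 and 0.278 against 0.267, 0.0460 and 0.133. The part of such reads in the PINK1 values was not tested.

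SOD1 (ENSBGRG00000000117, chromosome 1, 35088954 to 35098559) encodes the copper-zinc superoxide dismutase, which converts superoxide to hydrogen peroxide. It had an FPKM of 79.3, 73.4 and 77.4 in anestrus and of 102, 135 and 99.97 in estrus. The groups did not overlap, and estrus replicate 2 was the highest of the 9 input libraries. Limma gave a log2 fold change of 0.40 (SE 0.12, adjusted p = 0.260 from limma) without replicate 2 and 0.53 (SE 0.14, adjusted p = 0.184) with it. The pregnancy libraries, at 88.7, 106 and 91.2, lay above every anestrus library as well.

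MRPS6 (ENSBGRG00000000146, chromosome 1, 37787538 to 37858026) encodes a protein of the small subunit of the mitochondrial ribosome. Its FPKM was 60.7, 55.4 and 61.1 in anestrus against 92.9, 69.4 and 77.0 in estrus. All estrus libraries were above all anestrus libraries, and the pregnancy libraries, at 53.3 to 64.7, overlapped anestrus. Estrus differed from anestrus by 0.52 on the log2 scale (SE 0.13, adjusted p = 0.170 from limma) without replicate 2 and 0.42 (SE 0.14, adjusted p = 0.283) with it.

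CRYZL1 (ENSBGRG00000000142, chromosome 1, 37242775 to 37279040) encodes a protein related to quinone oxidoreductases. It had an FPKM of 9.36, 8.98 and 9.78 in anestrus and of 16.2, 21.1 and 12.2 in estrus. Estrus replicate 2 was the highest library, and the lowest estrus library was still above anestrus. The log2 fold change was 0.58 (SE 0.18, adjusted p = 0.286 from limma) without replicate 2 and 0.78 (SE 0.21, adjusted p = 0.184) with it. The ends of CRYZL1 and DONSON overlap on the same strand, so their reads may be shared. The 3 pregnancy values of CRYZL1, 7.64, 9.04 and 9.50, had a mean of 8.73, below the means of both other stages.

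OMA1 (ENSBGRG00000000253), a protease of the inner mitochondrial membrane that acts under stress, had 4.81, 4.35 and 4.60 in anestrus and 8.01, 9.25 and 5.20 in estrus. Its groups did not overlap, and its log2 fold change was 0.48 (SE 0.23, adjusted p = 0.532 from limma) without replicate 2 and 0.65 (SE 0.24, adjusted p = 0.400) with it. ENSBGRG00000000144, which the table annotates with proton-transporting ATP synthase activity, had 197, 187 and 185 against 210, 213 and 204. It also did not overlap between the groups, but its log2 fold change was 0.13 (SE 0.10, adjusted p = 0.743 from limma) without replicate 2 and 0.14 (SE 0.09) with it.

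Not every mitochondrial gene was higher. MRPL39, a protein of the large subunit of the mitochondrial ribosome, had 18.2, 16.7 and 17.2 in anestrus against 18.5, 16.9 and 16.8 in estrus, a log2 fold change of 0.02 (SE 0.13) without replicate 2 and 0.0031 (SE 0.12) with it. MRPS33, a protein of the small subunit, had 85.4, 98.1 and 86.8 against 120, 85.9 and 92.9, with overlap between the groups and a log2 fold change of 0.23 (SE 0.14) without replicate 2 and 0.13 (SE 0.14) with it. ENSBGRG00000000028, annotated with assembly of respiratory complex IV, had 114, 76.3 and 93.3 against 90.7, 99.2 and 56.2, which also overlapped. Its log2 fold change was below 0, at -0.39 (SE 0.23) without replicate 2 and -0.23 (SE 0.23) with it. The 8 genes tested whose gene ontology terms name the mitochondrion leave out MRPS33 and ENSBGRG00000000144. They include CXADR, a cell adhesion molecule, with a log2 fold change of 0.15 (SE 0.34) without replicate 2 and 0.03 (SE 0.33) with it. Of the 8, 6 had a log2 fold change above 0 without replicate 2 (median 0.27) and 7 with it (median 0.25). Over all 130 genes, 62.3% and 53.8% were above 0, with medians of 0.07 and 0.02. In 4 of the 8 (PINK1, MRPS6, SOD1 and OMA1), every estrus library, replicate 2 included, was above every anestrus library, as in 12 of the 130 genes (9.23%). This annotation group was chosen after the values were seen.

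The list of mitophagy and antioxidant genes had 4 of its 43 members in the table, PINK1, SOD1, NFE2L2 and BACH1. None of them passed the standard of the study, and their median log2 fold change was 0.28 without replicate 2 and 0.33 with it. NFE2L2, the transcription factor of the antioxidant response, had 63.2, 58.4 and 69.2 in anestrus and 73.8, 65.4 and 69.0 in estrus, a log2 fold change of 0.17 (SE 0.12, adjusted p = 0.743 from limma) without replicate 2 and 0.13 (SE 0.11) with it. BACH1, a repressor that competes with NFE2L2 for its sites, had 3.52, 5.43 and 3.52 against 3.67, 0.921 and 2.92, a log2 fold change of -0.30 (SE 0.29, adjusted p = 0.743 from limma) without replicate 2 and -0.88 (SE 0.48, adjusted p = 0.494) with it.

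**Figure D2:**
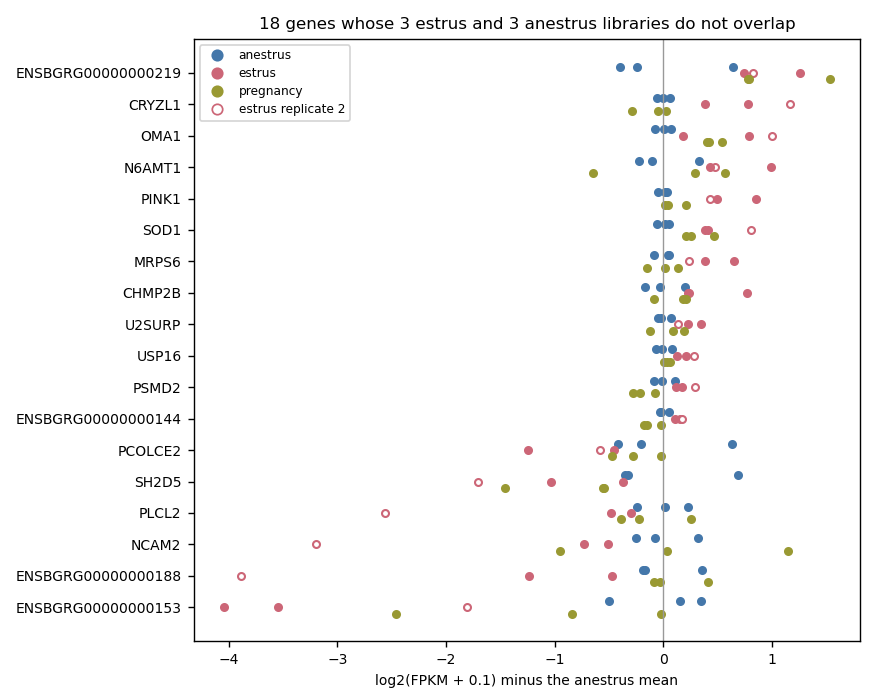
Difference of log2(FPKM + 0.1) from the anestrus mean (horizontal axis) in each input library for the 18 genes whose 3 estrus libraries all lay above or all below the 3 anestrus libraries. Each point is 1 library, and the open point is estrus replicate 2. In 12 genes the estrus points lie to the right of the anestrus points and in 6 to the left, and in 4 of the 6 (SH2D5, PLCL2, NCAM2 and ENSBGRG00000000188) estrus replicate 2 was the lowest library.

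Including estrus replicate 2, every estrus library lay above every anestrus library in 12 of the 130 genes (9.23%) and below in 6 genes (4.62%). Without it, the counts were 16 (12.3%) and 9 (6.92%). Of the 12 genes above, 4 had an unadjusted p under 0.05 in both fits (SOD1, CRYZL1, MRPS6 and PINK1). Among the others were CHMP2B, PSMD2 and USP16. CHMP2B (ENSBGRG00000000003, chromosome 1, 633575 to 669855) encodes a subunit of the ESCRT-III complex, which remodels endosomal membranes. It had 12.6, 13.9 and 16.3 in anestrus and 24.2, 16.6 and 16.7 in estrus, so that replicate 1 set most of the difference. Its log2 fold change was 0.50 (SE 0.20, adjusted p = 0.502 from limma) without replicate 2 and 0.41 (SE 0.19, adjusted p = 0.494) with it, and it was 0.23 with both estrus replicates 1 and 2 left out. PSMD2, a subunit of the proteasome cap, had 60.6, 65.8 and 57.5 against 66.3, 74.8 and 69.0. USP16, a deubiquitinase that acts on histone H2A, had 16.7, 17.3 and 18.5 against 20.2, 21.3 and 19.0. The log2 fold changes of PSMD2 and USP16 were 0.14 (SE 0.12) and 0.17 (SE 0.13) without replicate 2 and 0.19 (SE 0.11) and 0.21 (SE 0.11) with it, and neither had an unadjusted p under 0.05 in limma.

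All 8 genes tested whose annotation names ubiquitin or the proteasome had a log2 fold change above 0 without replicate 2 (median 0.17), and 6 of the 8 had one with it (median 0.18), beside 62.3% and 53.8% of all 130 genes (medians 0.07 and 0.02). PINK1 was the only one of the 8 with an unadjusted p under 0.05, and the group was chosen after the values were seen. LTN1 and UBE2G2 were near 0 without replicate 2, at 0.01 (SE 0.33) and 0.09 (SE 0.14). With median-ratio scaling of the libraries, 49.2% of all 130 genes were above 0, and the group was not counted again under that scaling. U2SURP, a splicing factor, had 24.8, 23.2 and 22.9 in anestrus and 30.1, 25.9 and 27.7 in estrus, with a log2 fold change of 0.29 (SE 0.13, adjusted p = 0.532 from limma) without replicate 2 and 0.24 (SE 0.13, adjusted p = 0.494) with it. N6AMT1, a methyltransferase, was low in all input libraries, at 0.328, 0.528 and 0.364 against 0.893, 0.596 and 0.572.

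ADAMTS1 (ENSBGRG00000000068, chromosome 1, 28754201 to 28762686) encodes a secreted protease that cuts versican and is induced in follicles by the ovulatory hormone surge. Its FPKM was 79.4, 137 and 106 in anestrus, 259 and 132 in estrus replicates 1 and 3, and 11.6 in estrus replicate 2. Estrus replicate 1 held the highest value and replicate 2 the lowest of all 9 input libraries, and replicate 3 lay within the anestrus range. Its log2 fold change was 0.82 (SE 0.34, adjusted p = 0.521 from limma) without replicate 2 and -0.51 (SE 0.96, adjusted p = 0.808) with it. With replicate 3 as the only estrus library it was 0.33, and with replicate 1 as the only one it was 1.30. The related protease ADAMTS5 was far lower, at 1.88, 1.39 and 1.92 in anestrus and 1.92, 3.24 and 1.87 in estrus, with no unadjusted p under 0.05.

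PCOLCE2 (ENSBGRG00000000254, chromosome 1, 137349323 to 137452455) encodes an enhancer of the cleavage of procollagen. It had 34.0, 19.0 and 16.3 in anestrus against 9.19, 14.6 and 16.0 in estrus. Every estrus library lay below every anestrus library, but estrus replicate 3 and anestrus replicate 3 nearly touched. The mean was 23.1 ± 9.50 (SD, n = 3) in anestrus and 13.3 ± 3.60 (SD, n = 3) in estrus. The log2 fold change was -0.85 (SE 0.34, adjusted p = 0.502 from limma) without replicate 2 and -0.76 (SE 0.31, adjusted p = 0.494) with it, and it was -0.45 with replicate 3 and -1.24 with replicate 1 as the only estrus library. Beside ADAMTS1, the measured member of the ovulation list was NRIP1, a nuclear receptor corepressor required for follicle rupture in mice. It had 9.65, 6.28 and 7.33 against 5.22, 2.07 and 7.39, a log2 fold change of -0.29 (SE 0.34) without replicate 2 and -0.80 (SE 0.47) with it. F3, the tissue factor that starts coagulation, varied more within the stages than between them, at 2.20, 8.13 and 3.68 against 6.33, 1.40 and 4.14.

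Of the measured receptors of the immune system, IFNAR1 had an unadjusted p under 0.05 in limma. IFNAR1 (ENSBGRG00000000133, chromosome 1, 36937136 to 36967325) encodes a chain of the receptor for type I interferons. Its FPKM was 16.3, 24.6 and 10.6 in anestrus and 7.04, 5.78 and 11.4 in estrus. Estrus replicate 3 lay above anestrus replicate 3, so the groups overlapped, while the other estrus libraries lay below all anestrus libraries. The log2 fold change was -0.85 (SE 0.33, adjusted p = 0.502 from limma) without replicate 2 and -1.06 (SE 0.34, adjusted p = 0.283) with it. Only the second passed the standard of the study. With replicate 3 as the only estrus library the fold change was -0.50, and with replicate 1 as the only one it was -1.19. IFNAR1 was also the only measured gene of the 13 that the study lists for PI3K-Akt signalling in this comparison, a list chosen on these samples and therefore not independent evidence of its direction.

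IFNAR1 lies beside genes of related receptors. IL10RB, a chain shared by the receptors of interleukin 10 and type III interferons, had 8.35, 11.2 and 7.42 in anestrus and 10.9, 7.05 and 9.41 in estrus. IFNGR2, a chain of the interferon gamma receptor, had 24.0, 32.7 and 23.5 against 22.3, 26.0 and 26.0. Their log2 fold changes were 0.19 (SE 0.23) and -0.13 (SE 0.18) without replicate 2 and 0.02 (SE 0.24) and -0.09 (SE 0.16) with it, so of the 3 measured genes of the interferon list, only IFNAR1 had an unadjusted p under 0.05 in limma. Whether IFNAR1 differed from its neighbours in its fold change was not tested. ITGB2, the integrin chain of white blood cells, had 4.26, 5.86 and 2.95 in anestrus and 10.9, 9.17 and 3.93 in estrus, a log2 fold change of 0.63 (SE 0.55, adjusted p = 0.743 from limma) without replicate 2 and 0.79 (SE 0.51, adjusted p = 0.545) with it. With both estrus replicates 1 and 2 left out it was -0.09. The 2 genes matched by symbol to the T cell marker list, CD84 and CD96, summed to 2.83, 3.73 and 1.49 in anestrus and to 3.04, 5.57 and 2.98 in estrus. The log2 fold change of CD84 was 0.59 (SE 0.52) without replicate 2 and 0.79 (SE 0.49) with it, and that of CD96 was -0.54 (SE 0.44) and -0.03 (SE 0.53). ENSBGRG00000000226 has no symbol but is described as SLAM family member 6, a marker of that list, and was left out of the sums. It had 1.33, 2.61 and 0.974 in anestrus and 3.34, 4.30 and 2.00 in estrus. Its log2 fold change was 0.74 (SE 0.55, adjusted p = 0.743 from limma) without replicate 2 and 0.98 (SE 0.53, adjusted p = 0.494) with it. Other markers of the T cell list were not analysed here, and the part of white blood cells in the values was not tested.

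Among guidance and adhesion genes, EPHA3 passed the standard without replicate 2, at low levels. EPHA3 (ENSBGRG00000000197, chromosome 1, 39875237 to 40333962) encodes a receptor for ephrin-A ligands. It had 0.0472, 0.197 and 0.175 in anestrus and 0.361, 0.119 and 0.594 in estrus. Estrus replicates 1 and 3 lay above all anestrus libraries, and replicate 2 lay within their range. Limma gave a log2 fold change of 1.30 (SE 0.57, adjusted p = 0.521 from limma) without replicate 2 and 0.85 (SE 0.57, adjusted p = 0.572) with it. It passed the standard in 5 of the 21 ways of processing in which it was tested. The ways of processing count the main fit, and the log2 ratio of means among them reuses the p of the main fit.

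The slit receptors ROBO1 and ROBO2 showed how far 1 library could move a comparison. ROBO1 had 24.5, 9.87 and 10.6 in anestrus, 10.6 and 17.4 in estrus replicates 1 and 3, and 1.16 in estrus replicate 2. ROBO2 had 14.6, 22.9 and 17.3 against 23.4 and 16.5, and 1.35 in estrus replicate 2. Their log2 fold changes were -0.01 (SE 0.41) and 0.13 (SE 0.32) without replicate 2, and -1.15 (SE 0.87) and -1.13 (SE 0.91) with it, with no unadjusted p under 0.05 either way. NCAM2, a neural cell adhesion molecule, was lower in every estrus library, at 1.23, 0.139 and 1.44 against 1.99, 2.65 and 1.75 in anestrus. Its log2 fold change was -0.62 (SE 0.55, adjusted p = 0.743 from limma) without replicate 2 and -1.48 (SE 0.79, adjusted p = 0.494) with it. Of the 5 genes of the guidance list in the table, CADM2 was too low to be tested. The median of the 4 tested genes of the guidance list (EPHA3, ROBO1, ROBO2 and NCAM2) was 0.06 without replicate 2 and -1.14 with it.

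**Figure D3:**
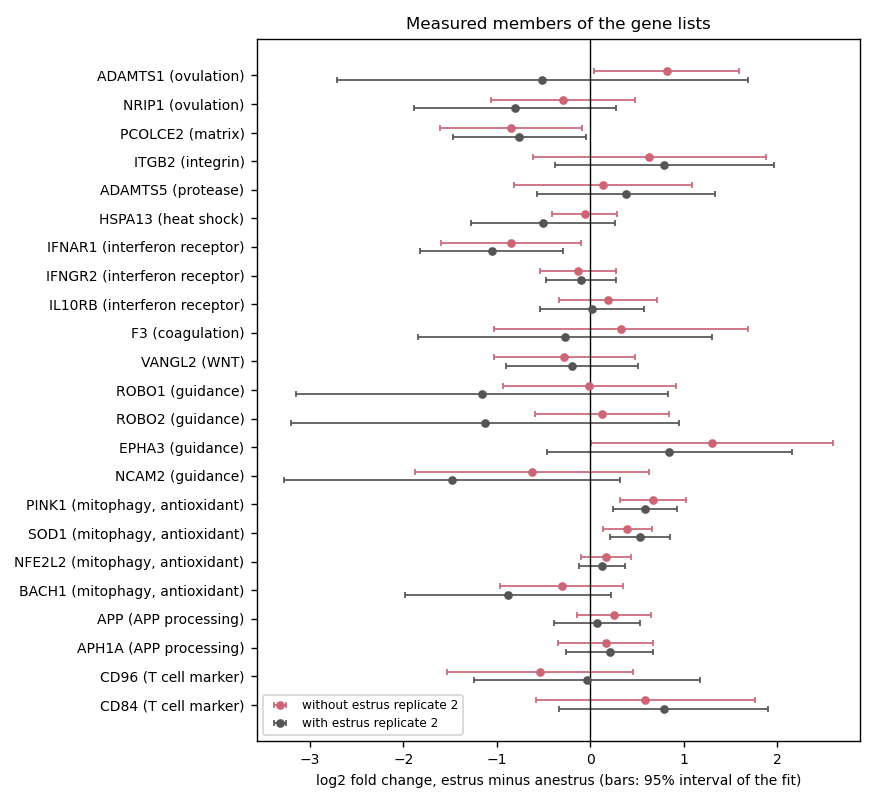
Log2 fold change, estrus minus anestrus (horizontal axis), of the 23 tested genes matched by symbol to the gene lists, with the list in parentheses. Points are limma estimates with their 95% intervals, without estrus replicate 2 in red and with it in grey. PINK1 and SOD1 had narrow intervals above 0 both ways, and those of ROBO1, ROBO2 and ADAMTS1 widened when replicate 2 was included.

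The largest differences were in genes with no symbol. ENSBGRG00000000153 (chromosome 1, 38262094 to 38262486) carries the annotation of a regulator of potassium channels at the apical membrane. Its FPKM was 2.93, 2.56 and 1.58 in anestrus and 0.0445, 0.580 and 0.103 in estrus, and its pregnancy values were 0.332, 2.25 and 1.23. All estrus libraries lay below all anestrus libraries, and replicate 2 was the highest of the estrus libraries. On the log2 scale, the difference was -3.80 (SE 0.69, adjusted p = 0.0509 from limma) without replicate 2 and -3.13 (SE 0.77, adjusted p = 0.184) with it. In estrus replicates 1 and 3, its values lay near the added 0.1, so the size depends on that constant. Without replicate 2, the gene had a difference of -1.62 with 1 added instead and of -4.86 with 0.01. It was the only gene that passed the standard of the study in both fits, and it passed in all 22 ways of processing.

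ENSBGRG00000000231 (chromosome 1, 168538166 to 168538429), annotated with binding of fatty acyl-CoA, had 50.7, 44.2 and 33.4 in anestrus and 24.9, 47.7 and 31.0 in estrus. Estrus replicate 2 lay within the anestrus range, and the log2 fold change was -0.60 (SE 0.19, adjusted p = 0.286 from limma) without it and -0.34 (SE 0.25, adjusted p = 0.581) with it. Its whole span of 264 bases lies within PLCL2 on the opposite strand. PLCL2, a phospholipase C-like protein, was itself lower in every estrus library, at 7.53, 1.71 and 8.61 against 10.7, 12.4 and 8.94, with a log2 fold change of -0.39 (SE 0.23, adjusted p = 0.743 from limma) without replicate 2 and -1.11 (SE 0.54, adjusted p = 0.494) with it. ENSBGRG00000000188 (chromosome 1, 168207158 to 168245909) had 1.87, 2.78 and 1.89 in anestrus and 0.854, 0.0516 and 1.51 in estrus. Its groups did not overlap, and its log2 fold change was -0.86 (SE 0.37, adjusted p = 0.521 from limma) without replicate 2 and -1.87 (SE 0.78, adjusted p = 0.494) with it.

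Of the fits with and without replicate 2, a pair of genes with values listed at 0 passed the standard in the one with it. ENSBGRG00000000233 (chromosome 4, 17047040 to 17051409) had 8.27, 11.7 and 8.28 in anestrus, was listed at 0 in estrus replicates 1 and 2, and had 10.2 in estrus replicate 3. ENSBGRG00000000121 (chromosome 1, 35817746 to 35833047) had 0.432 and 1.09 in anestrus replicates 1 and 2 and was listed at 0 in anestrus replicate 3 and in all 3 estrus libraries. A listed 0 can be a failed estimate, so no fold is given.

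The remaining list members had no unadjusted p under 0.05 in limma. APP, the amyloid precursor protein and an abundant gene of the table, had 213, 301 and 275 in anestrus and 345, 211 and 282 in estrus, a log2 fold change of 0.26 (SE 0.17, adjusted p = 0.743 from limma) without replicate 2 and 0.07 (SE 0.20) with it. The other tested member of the APP processing list was APH1A, a subunit of gamma-secretase, with 0.16 (SE 0.22) without replicate 2 and 0.21 (SE 0.20) with it. VANGL2, a planar polarity protein of the WNT list, had a log2 fold change of -0.28 (SE 0.33) without replicate 2 and -0.19 (SE 0.31) with it. HSPA13, the measured gene of the heat shock list, had -0.06 (SE 0.15) without replicate 2 and -0.51 (SE 0.34) with it. For the same 105 genes, the median half-width of the 95% interval was 0.54 on the log2 scale without replicate 2 and 0.71 with it. The interval lay within -1 to 1 in 68 of the 130 genes without replicate 2 and in 51 with it.

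**Figure D4:**
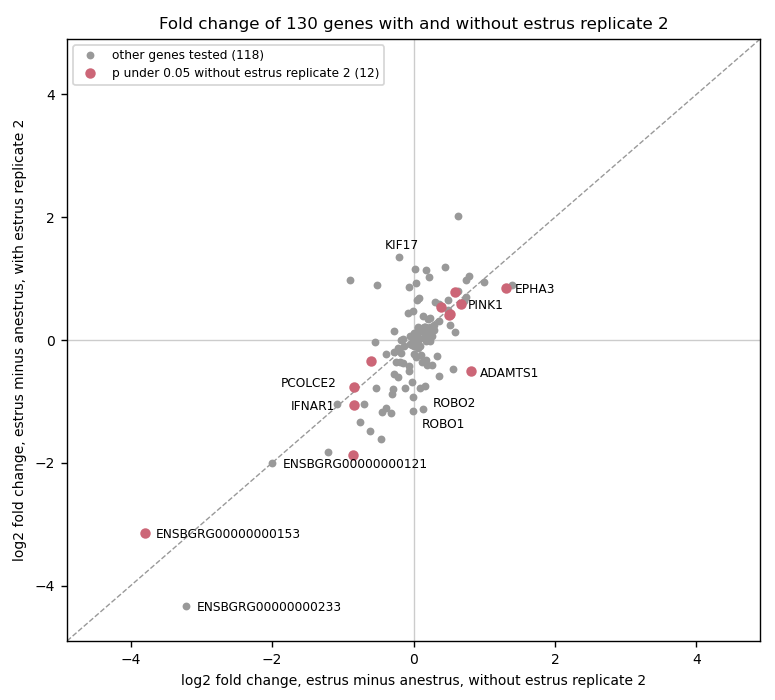
Log2 fold change, estrus minus anestrus, of the 130 genes without (horizontal axis) and with (vertical axis) estrus replicate 2. Each point is 1 gene, the 12 genes with an unadjusted p under 0.05 without replicate 2 are red, and the dashed line marks equal values. Of the 130 genes, 99 (76.2%) had the same sign both ways, and ADAMTS1 was the red point that changed sign.

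The fold changes with and without replicate 2 share 2 of the 3 estrus libraries and all anestrus libraries. Between them, 8 genes had an unadjusted p under 0.05 both ways, 4 only without replicate 2 (ENSBGRG00000000231, CHMP2B, ADAMTS1 and EPHA3) and 3 only with it (OMA1, ENSBGRG00000000121 and ENSBGRG00000000233). The number of genes with a log2 fold change of 1 or more in size was 7 without replicate 2 and 23 with it, and the median SE was 0.30 and 0.41. Of the 130 genes, 81 (62.3%) had a log2 fold change above 0 without replicate 2 and 70 (53.8%) with it. Among the genes whose mean FPKM was 1 or more, those highest in replicate 2 against the other estrus libraries included ENSBGRG00000000124, described as cilia and flagella associated protein 298, with 310 against 47.0 and 37.8. KIF17, a kinesin motor of cilia and dendrites, had 26.8 against 0.691 and 1.31, and ENSBGRG00000000242 had 31.4 against 0.482 and 0.598. ENSBGRG00000000256 had 7.97 against 0.892 and 0.505. The lowest in replicate 2, beside ADAMTS1, ROBO1 and ROBO2, was VGLL3, a transcription cofactor, at 0.135 against 2.18 and 2.81. The 30 markers of ciliated epithelium were not analysed here, since 0 of them are among the 173 genes, and the part of such cells in replicate 2 was not tested.

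For most of the 12 genes with an unadjusted p under 0.05, the pregnancy mean lay between the anestrus and the estrus means (10 genes), computed without estrus replicate 2. ENSBGRG00000000188 had a pregnancy mean of 2.33, above both, and CRYZL1 lay below both. The 12 genes were chosen for their gap between anestrus and estrus in the same libraries. Such a choice by itself favours a pregnancy mean inside the gap. The count was not compared with that over all genes tested, so no conclusion about pregnancy is drawn from it. Of these 12 genes, IFNAR1 had an m6A peak, in the estrus list, as far as the estrus and anestrus lists were analysed here. The estrus list gave it 1 exonic peak (chromosome 1, 36964630 to 36965772) with a fold enrichment of 2.96 over input. This is also the last peak of the estrus list analysed here, and the anestrus list analysed here ends before it, at position 22449705 of chromosome 1. Both hold only peaks of genes on the plus strand, so the stages could not be compared at this peak and most of the 12 genes were not covered.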

How the data were processed

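Poly(A) RNA of yak ovary was sequenced in 9 input libraries, 3 per stage. The authors aligned reads with HISAT2 2.0.4 to the Bos grunniens genome, quantified genes with StringTie and deposited FPKM values, with no further scaling stated. The methods give a version number of the genome but no assembly name, and coordinates are those of the deposited table. The peak lists were deposited by the authors with 1 list per stage, and their fold enrichment is a ratio of immunoprecipitation to input. Per the file headers, their score columns hold the log10 of p-values, which were not used, and the tables in which the authors compared stages were not used either. The part of the table analysed here held 173 genes after 1 row without values was left out, with 344 of 1557 values at 0. Symbols came from the table, 65 genes had none, and 95 of 106 distinct symbols were found in the supplied RefSeq table. Sequencing depth per library was not computed, since FPKM holds no counts, and precision was taken from the spread between libraries alone.

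Genes whose FPKM averaged 0.1 or more across the 9 input libraries were tested on log2(FPKM + 0.1). The tool was limma 3.58.1 (R 4.3.3), with the 3 stages in 1 linear model, variances moderated by empirical Bayes along a mean-variance trend, and a two-sided contrast of estrus minus anestrus. The fit used 8 libraries without estrus replicate 2, and was repeated with it. The methods of the study name a tool made for count data, which was not used here because the values are FPKM. P-values were adjusted by the Benjamini-Hochberg method over all genes tested. Single genes were also compared by an exact permutation test (two-sided) of their log2 values. Whether the 3 libraries of a stage came from 3 different animals is not stated in the sources used here. The limma p-values rest on the spread between libraries of 1 farm, shared over the 3 stages and moderated across genes.

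In 50 simulated sets of 130 genes with 26 changed by 3 on the log2 scale, for estrus against anestrus in 8 libraries, 97.4% of changed and 1.88% of unchanged genes passed the standard of the study, and 92% of changed genes passed after adjustment. A change of 3 is far above most differences seen here, where 96 of the 130 genes were under 0.5 in size without estrus replicate 2. Smaller changes were not simulated, so these shares do not apply to them. Gene lists and the genes compared were chosen with earlier results of these data known. Of 1014 genes in 41 lists, 24 were matched to the table by symbol and 23 were tested. With this matching, 28 lists had no gene among the 173. Named genes were every gene with an unadjusted p under 0.05 (the first part of the rule, on genes past the standard with no overlap and a mean FPKM of 1 or more, gave 0 genes with a symbol), up to 4 members per list, IFNAR1, PINK1, ADAMTS1, PCOLCE2 and EPHA3, and, of genes with a mean FPKM of 1 or more, the 4 highest and the 4 lowest in estrus replicate 2 against the other estrus libraries. A set of 12 genes taken from the study's text was not analysed here. Not all of them are named there for this comparison. STAR is named for estrus against pregnancy, and SULT1C3, ADGRB3 and IRF4 are tied to no particular comparison. Genes named only because their groups did not overlap, or because of their annotation, were chosen after their values were seen. Tables and figures used Python 3.11.15, numpy 2.4.6, pandas 2.3.3 and matplotlib 3.10.9. The alternatives were other pseudocounts, minimum means, scalings, moderation without trend, a fit of 2 stages, a replicate block, the log2 ratio of means, and each library left out in turn.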

Additional observations from a re-analysis of the deposited data

How the results depend on the processing

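The counts by the standard of the study (higher, lower) and after adjustment were 1, 1 and 0. With a pseudocount of 1 the higher count was 0, and with 0.01 the counts were 0, 2 and 1. With a minimum mean FPKM of 1, with median-ratio scaling and with only the estrus and anestrus libraries, the higher count was 0 and 1 gene passed after adjustment, ENSBGRG00000000153 each time, as with the pseudocount of 0.01. Quantile normalization gave 2 higher genes. Including estrus replicate 2 gave 0 higher and 5 lower genes, and the fit of only 2 stages with it, chosen after seeing the data, gave 0 and 3. Leaving out each library in turn gave 0 to 3 higher genes, 1 to 6 lower genes and 0 to 5 after adjustment, the highest each time without estrus replicate 3, which leaves 1 estrus library assumed to vary like the other stages (the 5 were ENSBGRG00000000020, MIS18A, ENSBGRG00000000153, PINK1 and ENSBGRG00000000233). The cause was not tested.

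The replicate numbers do not pair the samples, which are different animals of different months. For each library, the deviations of its log2 values from its stage mean were taken, with estrus replicate 2 included. These deviations correlated at -0.37, -0.12 and 0.15 between same-numbered anestrus and estrus libraries. With the replicate number as a block, 0 higher and 1 lower genes passed the standard, and 0 and 5 with estrus replicate 2.

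PINK1, MRPS6, SOD1 and ENSBGRG00000000153 had an unadjusted p under 0.05 in all 22 settings, CRYZL1 in 21, IFNAR1 and PCOLCE2 in 15, CHMP2B in 12 and EPHA3 in 7 of 21. The settings counted include the main fit and the log2 ratio of means, which reuses the p of the main fit and is no separate test. Without single libraries, the log2 fold change ranged from 0.50 to 0.85 for PINK1, 0.38 to 0.65 for MRPS6, 0.36 to 0.42 for SOD1 and 0.38 to 0.78 for CRYZL1. With estrus replicate 2, alone, in the block or in the 2-stage fit, the sign turned for ADAMTS1 (-0.51), F3 (-0.27), ROBO2 (-1.13), KIF17 (1.35) and ENSBGRG00000000242 (0.98). ENSBGRG00000000256 turned to -0.063 with median-ratio scaling, -0.014 with quantile normalization and -0.027 in the block, and ROBO1 turned to 0.049 with quantile normalization. Without single libraries the sign also turned for F3 (-0.10 to 0.83), KIF17 (-0.63 to 0.22), ROBO1 (-0.36 to 0.41), ROBO2 (-0.13 to 0.38), ADAMTS5 (-0.0046 to 0.21), ENSBGRG00000000256 (-0.33 to 0.38), IFNGR2 (-0.24 to 0.023), ITGB2 (-0.094 to 1.36) and VANGL2 (-0.66 to 0.10). Median-ratio scaling moved the median log2 fold change of all genes from 0.07 to -0.01 and the share above 0 from 62.3% to 49.2%.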
